A study of Homo sapiens with 10 samples.

Results

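The D-type cyclins and their kinases are encoded by 5 genes, CCND1, CCND2, CCND3, CDK4 and CDK6, out of 19962 protein-coding genes examined. Their Rb peaks were taken as those that overlapped a promoter, defined as 2000 bp upstream to 500 bp downstream of any annotated transcript start (GENCODE release 44), together with peaks outside promoters for which one of the 5 genes was the nearest protein-coding gene. The 8 Rb peak lists held 57 such peaks among 87112, and these merged into 13 promoter sites and 5 non-promoter regions. Rb occupancy came from CUT&RUN, an assay that brings a nuclease to a chromatin protein through an antibody and sequences the DNA it cuts free. The cells were OVCAR3 and Kuramochi, established lines of high-grade serous ovarian cancer labelled as wild type, and they received INX-315, an inhibitor of CDK2, at a dose of 300 nM or a matched volume of its solvent DMSO for 2 days. Each of the 4 groups had 2 biological replicates from a single experiment, so that replicate spread within an experiment is all that the tests can measure. Each line also had 1 IgG2a control library from DMSO-treated cells.

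D-type cyclins bind CDK4 or CDK6 when cells receive growth signals, and the resulting kinases begin the phosphorylation of Rb in G1. Rb that lacks this phosphorylation binds E2F transcription factors and holds their target genes in check, whereas cyclin E and cyclin A with CDK2 add further phosphates later in the cycle. The D-type cyclins and CDK4/6 therefore act upstream of Rb, and their own promoters respond mainly to growth factor and lineage signals, while genes such as CCNE1 and CCNA2 are classic E2F targets.

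The library totals set the frame for these peaks. The DMSO lists held 5221 to 8794 peaks and the INX-315 lists 13031 to 17281. The genome-wide mean depth, recovered from the peak values, was 0.380 to 0.501 fragments per base under DMSO and 0.216 to 0.421 under INX-315, and the smallest peak listed over that background rested on 3 to 5 fragments. A gene without a listed peak may thus still carry Rb below this limit. The IgG2a lists held 257 and 195 peaks, of which 25 and 12 lay on chromosomes 1 to 22 and X. None was at the promoter of any of the 5 genes, but with so few peaks that absence says little.

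Promoter sequences are shown from the RefSeq promoter table (GRCh38.p14, the same assembly as the peaks) for 1 start of each gene that has an entry, the one under its most widely listed Rb site, so that the letters under the CCND3 site occupied in every library can be set beside those of CDK4 and CDK6. CCND1 and CCND2 had no entry. Each stretch runs 5′ to 3′ on the minus strand, ends at most 30 bases into transcribed sequence, and lies wholly inside the Rb site described. Capitals mark E-boxes (CACGTG, the MYC family recognition sequence) and GC boxes (GGGCGG or its complement, recognised by Sp1-type factors).
CCND3 (chr6:41941779-41942058): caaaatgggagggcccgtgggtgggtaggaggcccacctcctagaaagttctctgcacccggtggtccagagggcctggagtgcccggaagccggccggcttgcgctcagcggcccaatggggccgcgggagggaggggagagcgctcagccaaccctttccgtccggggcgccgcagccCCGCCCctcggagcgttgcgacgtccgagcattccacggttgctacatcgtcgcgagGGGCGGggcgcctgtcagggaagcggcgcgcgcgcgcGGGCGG
CDK4 (chr12:57752418-57752560): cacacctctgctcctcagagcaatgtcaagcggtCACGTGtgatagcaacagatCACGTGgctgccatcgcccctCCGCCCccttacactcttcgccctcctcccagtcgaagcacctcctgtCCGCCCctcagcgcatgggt
CDK6 (chr7:92833930-92834209): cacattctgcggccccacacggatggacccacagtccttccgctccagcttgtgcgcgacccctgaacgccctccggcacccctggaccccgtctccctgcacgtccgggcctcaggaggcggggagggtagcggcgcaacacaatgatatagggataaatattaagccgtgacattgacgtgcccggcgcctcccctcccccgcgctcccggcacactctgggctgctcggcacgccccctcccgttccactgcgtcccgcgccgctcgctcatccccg

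The E2F consensus was sought as TTTCCCGC, TTTCGCGC, TTTGCCGC or TTTGGCGC, along with the cell cycle homology element TTTGAA, the AP-1 site TGACTCA or TGAGTCA and the cyclic AMP response element TGACGTCA, on either strand. None of these occurred in the 6 table promoters of CCND3, CDK4 and CDK6, each 300 bases long. Among all 35116 promoters of that length, 3.31% held the E2F consensus, 15.2% the cell cycle homology element, 4.95% the AP-1 site and 1.85% the cyclic AMP response element. Nor did they occur in windows of 200 bases around the highest summit of each of the 8 Rb sites of these 3 genes, where 3.46%, 5.19%, 2.28% and 0.602% of the 22760 Rb regions held them. The E-box and GC box were added to the search after the sequences had been read. E-boxes occurred in 2 of the 6 table promoters, with 3 at CDK4, of which 2 lie in the printed stretch, and 1 at the main CDK6 start, which is not printed. At least 1 E-box was found in 7.26% of all promoters. GC boxes numbered 4 at the printed CCND3 start and 5 at the CCND3 start under the weaker upstream site, 3 at CDK4, and 3 at the main but 0 at the printed CDK6 start, and 45.0% of all promoters held 1 or more. In the summit windows, 0 of the 8 held an E-box and 3 a GC box. Over the 22760 Rb regions the shares were 3.95% and 47.1%. Other spellings of these elements were not searched for.

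Rb occupied 1 of the 5 promoter sets in both DMSO libraries of each line and 4 of 5 in both INX-315 libraries of each line. The gene occupied under DMSO was CCND3. Under INX-315, CCND1, CDK4 and CDK6 joined it, and CCND2 was not occupied in both replicates of any group. Over all protein-coding genes, 26.8% were occupied under DMSO and 55.5% under INX-315 in OVCAR3, and 24.9% and 53.2% in Kuramochi. A gene was called gained in a line when each INX-315 replicate had a promoter peak and the DMSO replicates had none. CCND1 and CDK6 were gained in OVCAR3 (16.2% of all genes), CDK6 alone in Kuramochi (14%), and CDK6 was the only one gained in both lines (5.56%). None of the 5 was lost, a call met by 0.00501% of genes in OVCAR3 and 0.015% in Kuramochi. Single libraries decided some calls. CDK4 counted as occupied under DMSO in OVCAR3 once DMSO replicate 2 was left out, and CCND1 and CDK4 in Kuramochi without DMSO replicate 1. Without OVCAR3 DMSO replicate 1, CDK4 was gained in OVCAR3 beside CCND1 and CDK6. Without Kuramochi DMSO replicate 2, CCND1, CDK4 and CDK6 were gained in that line, and without its INX-315 replicate 2, CCND2 and CDK6 were. With 5 genes, these counts describe the genes and do not set them apart from the genome. Of the 57 peaks, 12 came from the DMSO lists and 45 from the INX-315 lists. The INX-315 lists were also longer over the whole genome, at 13031 to 17281 peaks against 5221 to 8794. The split is thus no trait of these 5 genes alone.

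**Figure D1:**
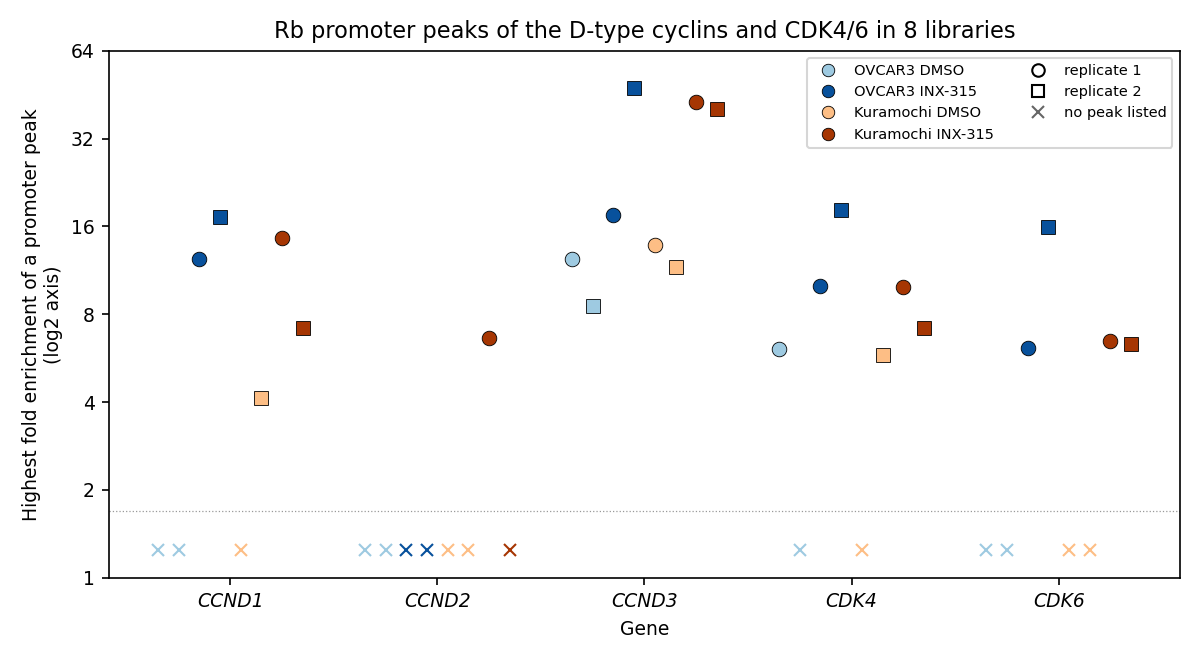
Highest fold enrichment of any Rb promoter peak (log2 axis) for each gene in each of 8 libraries; circles are replicate 1, squares replicate 2, and crosses below the dotted line are libraries with no listed promoter peak. CCND3 has a value in all 8 libraries, CDK6 in the 4 INX-315 libraries only, and CCND2 in 1 library. In OVCAR3 DMSO replicate 2 and INX-315 replicate 1 the CCND3 points (8.56 and 17.5) are the upstream site near TAF8. The main CCND3 site had 6.41 and 16.6 there.

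CCND3 encodes cyclin D3, the D-type cyclin most used in lymphoid cells but found in many tissues. Its main promoter site (chr6:41940359-41942191) was the only site of the 5 genes called in every library, as were promoters of 3762 of 19962 protein-coding genes. The site spanned the start of the main transcript, its first exon and the beginning of the first intron. Fold enrichment, which divides the summit fragments by the background expected there, was 12.4 and 6.41 in the OVCAR3 DMSO libraries and 16.6 and 47.8 after INX-315. The Kuramochi values were 13.8 and 11.6 with DMSO, against 42.7 and 40.3 with the inhibitor. The INX-315 libraries lay above the DMSO libraries of the same line without overlap, although in OVCAR3 the lower INX-315 value was close to the higher DMSO value.

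The height in fragments separated the treatments more widely. The summit held 21 and 22 fragments in the OVCAR3 DMSO libraries against 42 and 83 under INX-315, and 20 and 15 in the Kuramochi DMSO libraries against 59 and 48. Divided by each library's genome mean, these were 42.4 and 43.9 against 137 and 197 in OVCAR3, and 44.9 and 39.5 against 146 and 222 in Kuramochi. The low fold enrichments in OVCAR3, 6.41 in DMSO replicate 2 and 16.6 in INX-315 replicate 1, went with summits called 585 and 602 bp into the gene, where the local background was 5.16 and 5.17 times the genome mean. In the other 6 libraries the summit lay 91 to 259 bp downstream of the start and the local background was 1 to 1.80 times the genome mean. The rank of the peak within its own list, by p-value, was at the 68.3 to 88.4 percentile in the DMSO libraries and the 88.3 to 97.5 percentile in the INX-315 libraries.

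**Figure D2:**
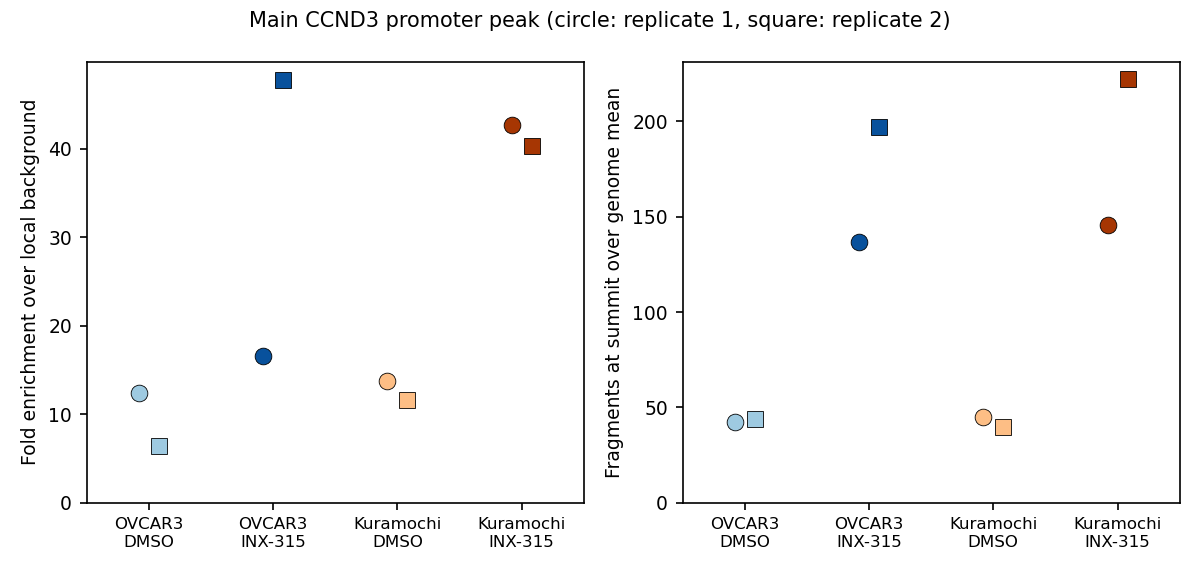
Fold enrichment over local background (left) and summit fragments as a multiple of the library's genome mean (right) at the main CCND3 promoter site, 2 libraries per group, both axes from 0. On the right the DMSO libraries sit between 39.5 and 44.9 and the INX-315 libraries between 137 and 222.

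Peak heights could be tested only where all 8 libraries had a peak, which held for 3269 of 22760 regions, the main CCND3 site among them. In limma, with cell line and treatment as terms and Benjamini-Hochberg adjustment over the 3269 regions, log2 fold enrichment at CCND3 rose from 3.41 to 5.10, a change of 1.69 ± 0.32 (SE, 4 libraries per treatment, adjusted p = 6.58e-07) or 3.22-fold (95% interval 2.10 to 4.95). It was higher in both lines, by 1.66 ± 0.46 in OVCAR3 (adjusted p = 0.000882) and 1.71 ± 0.46 in Kuramochi (adjusted p = 0.00195), and the difference between the lines was 0.05, with a 95% interval of -1.21 to 1.32. The call is shared by most regions, since 95.2% were higher in the joint limma fit, 87.3% in OVCAR3 and 65.4% in Kuramochi, and the median change was 1.31. Once each library was centred on its median, the change at CCND3 was 0.34 ± 0.24 (95% interval -0.16 to 0.84, limma adjusted p = 0.390), whereas 3.06% of regions were higher. CCND3 therefore rose with the general increase, and a rise beyond it was not detectable with these libraries. Before centring, the limma p-values and intervals rest on 1 spread pooled over the 3269 regions (16345 residual degrees of freedom in the joint fit). They treat regions as independent, while only the 8 libraries carry replication. An exact two-sided permutation of treatment within lines gave p = 0.0556 for CCND3, which is the smallest value its 36 arrangements allow.

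CCND3 had other Rb sites near distant starts of longer transcripts. One (chr6:42050456-42050859) lay 109 kb upstream of the main start, only 11 bp from a start of TAF8, a TFIID subunit gene transcribed away from CCND3. The peak does not tell which gene owns the site. It was listed in 6 libraries, with fold enrichment of 8.56 in OVCAR3 DMSO replicate 2 and 6.33 in Kuramochi DMSO replicate 2. Under INX-315 the values were 17.5 and 22.4 in OVCAR3 and 11.9 and 9.76 in Kuramochi, all above the DMSO value of the same line. A weaker site (chr6:42048499-42048921), also within a TAF8 promoter window, was listed only in the OVCAR3 INX-315 libraries, at 4.59 and 7.74. The main CCND3 site was set beside 3790 other genes, each assigned to a merged region with a peak in all 8 libraries. This count follows merged regions, not the promoter peaks of each gene as in the 3762 above. Closest in log2 fold enrichment were DACT3 (a Wnt signalling regulator), HINFP (an activator of histone H4 genes) and TERF1 (a telomere-binding protein). Their root mean square differences over the 8 libraries were 0.26, 0.26 and 0.31 on the log2 scale.

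CCND1 encodes cyclin D1, the D-type cyclin most often overexpressed in carcinomas. It had the most spread-out occupancy, with 22 peaks in 9 regions, 4 from DMSO lists and 18 from the longer INX-315 lists. The highest promoter fold enrichment was 12.4 and 17.2 in the OVCAR3 INX-315 libraries, and no promoter peak was listed in the OVCAR3 DMSO libraries. In Kuramochi it was 14.6 and 7.16 under INX-315, and 4.14 in DMSO replicate 2 with none in replicate 1. The summits of the same peaks held 51.9 and 46.3 times the genome mean under INX-315, and 13.2 times in DMSO replicate 2. The promoter peaks of Kuramochi DMSO replicate 2 were weak, ranking at the 8.11 percentile of their list or lower, and their summits held 5 and 6 fragments. With a stricter q-value of 0.001 they dropped out, and CCND1 then counted as gained in both lines.

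The CCND1 peaks under INX-315 fell into a series along the gene. The site over the start (chr11:69640711-69641983) was listed in 3 INX-315 libraries, with its highest summit 225 bp downstream of the start, in the coding part of the first exon. Its highest values were 12.4 and 17.2 in OVCAR3 and 8.22 in Kuramochi replicate 1. An intronic site (chr11:69642662-69643588), 2.14 kb into the gene and within reach of internal starts, was listed in all 4 INX-315 libraries at 9.47, 15.9, 14.6 and 5.85. That site was also listed in Kuramochi DMSO replicate 2, at 3.82. At the upstream edge of the promoter window, 1.89 kb from the start, a site (chr11:69638185-69639451) was listed in the 4 INX-315 libraries only, at 8.47 and 14.0 in OVCAR3 and 9.30 and 7.16 in Kuramochi.

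Further upstream, 2 regions outside the promoter window were gained in OVCAR3 with CCND1 as the nearest gene, out of 5 non-promoter regions nearest to the 5 genes, and none was gained in Kuramochi. Over all 7053 non-promoter regions, 8.38% were gained in OVCAR3 and 6.08% in Kuramochi. The one 4.42 kb upstream (chr11:69636362-69637030) had fold enrichments of 7.09 and 10.8, and its summit was at the same base in both OVCAR3 INX-315 libraries. The one 2.77 kb upstream (chr11:69638091-69638613) had 7.02 and 10.2 in OVCAR3 and 10.7 in Kuramochi INX-315 replicate 2. In Kuramochi INX-315 replicate 1 a single wide peak covered this position and joined it to the promoter site, with its summit outside the promoter window. The remaining CCND1 regions were each listed in 1 library. They comprised promoter-window peaks in Kuramochi DMSO replicate 2 (4.14) and Kuramochi INX-315 replicate 1 (5.31), and distant regions 13.2 kb upstream in OVCAR3 DMSO replicate 2 (3.95) and 169 kb upstream in Kuramochi DMSO replicate 2 (5.07).

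**Figure D3:**
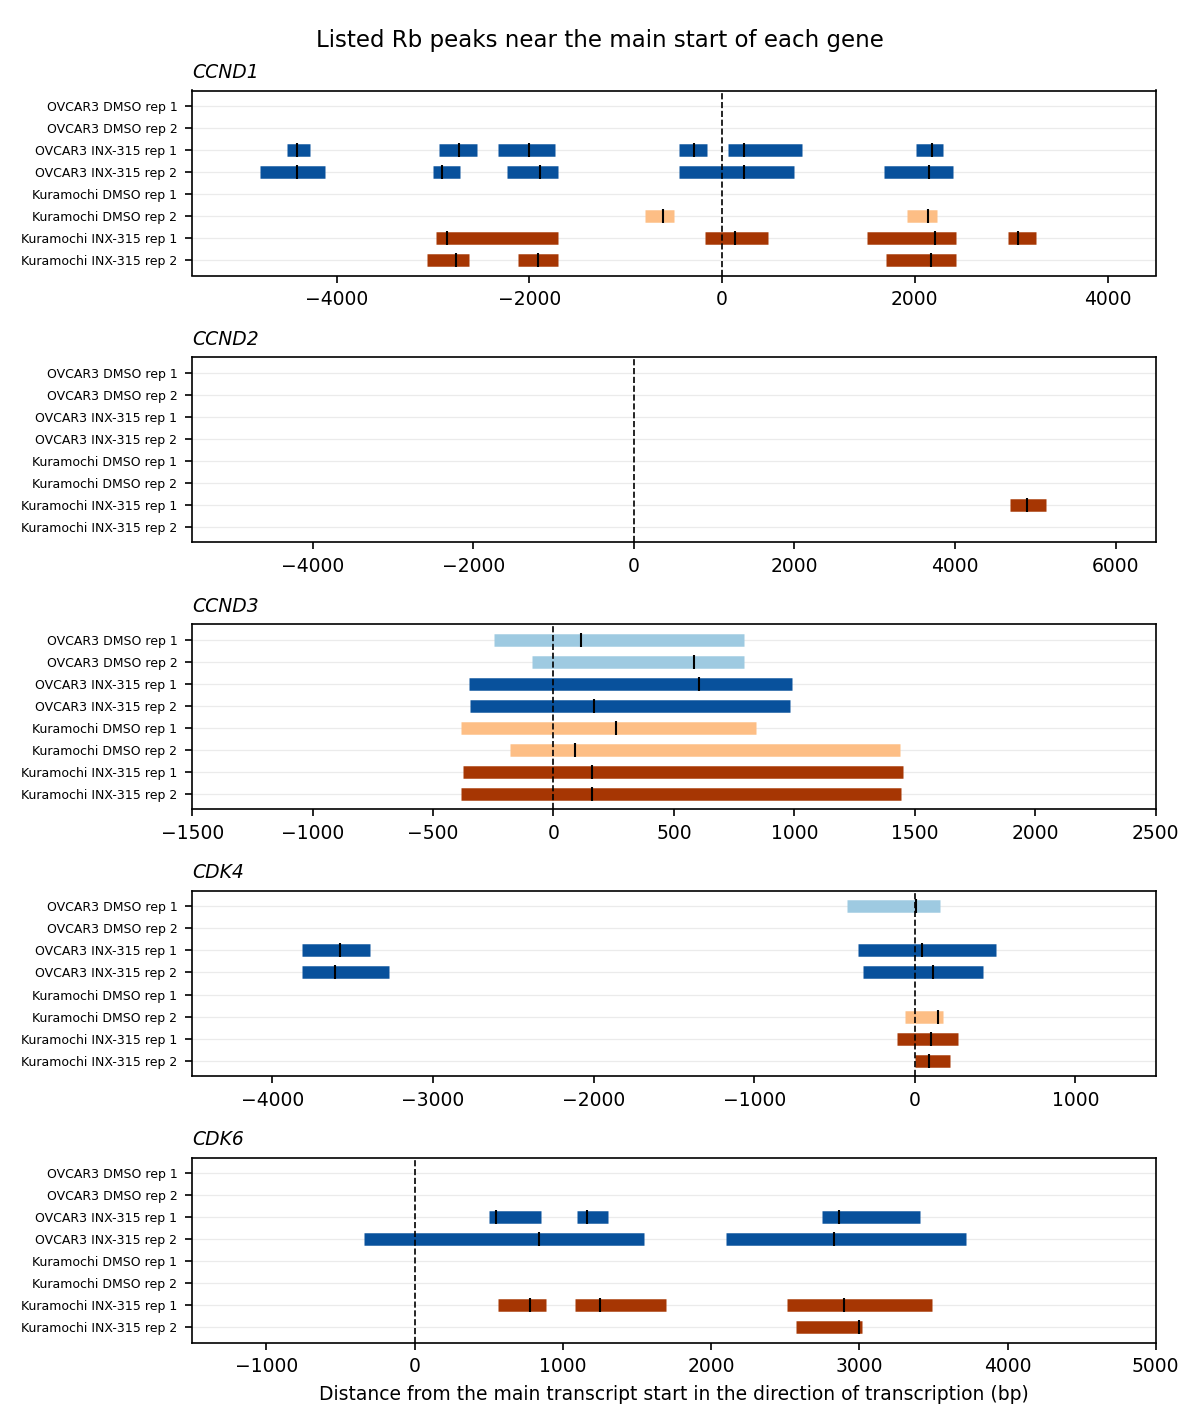
Listed Rb peaks (bars) and their summits (black ticks) in each of 8 libraries, plotted by distance in bp from the main transcript start (dashed line) in the direction of transcription; regions farther away, such as the CCND3 sites 109 kb upstream, are outside the panels. CCND1 and CDK6 show several separate peaks under INX-315, while CCND3 shows 1 broad peak in every library.

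CCND2 encodes cyclin D2, prominent in gonadal and haematopoietic cells. It had 1 peak in all, in Kuramochi INX-315 replicate 1 (chr12:4278447-4278893), with fold enrichment 6.64 on 9 fragments. The summit was 4.90 kb into the gene, in an intron, and 5 bp from the start of an internal transcript. The other 7 libraries listed none, so no group had a call. The same pattern was found for 241 protein-coding genes.

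CDK4 encodes one of the kinases that the D-type cyclins activate. Its start site (chr12:57751806-57752733) was listed in 6 libraries, at 6.08 in OVCAR3 DMSO replicate 1 and 5.80 in Kuramochi DMSO replicate 2, with no peak in the other DMSO library of each line. Under INX-315 fold enrichment was 9.96 and 18.2 in OVCAR3 and 9.95 and 7.16 in Kuramochi. Every INX-315 value exceeded the DMSO value listed for its line, but a library without a listed peak has no value, and no test of height was made on the other 6. On fragments over the genome mean the same libraries gave 20.2 and 26.3 under DMSO, against 45.7 and 71.3 in OVCAR3 and 46.9 and 46.3 in Kuramochi under INX-315. CDK4 was neither gained nor occupied throughout, and its pattern over the 8 libraries was shared by 178 genes.

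The CDK4 summits lay 8 to 147 bp downstream of the main start, mostly within the untranslated first exon. A separate site (chr12:57755585-57756127) 3.58 kb upstream appeared in the OVCAR3 INX-315 libraries alone, at 7.37 and 5.94. It fell in a window shared with MARCHF9, a ubiquitin ligase gene, and was 126 bp from the farthest upstream CDK4 start.

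CDK6 encodes the other kinase partner and, unlike the rest of the 5 genes, was occupied in all 4 INX-315 libraries and in no DMSO library. All 10 of its peaks came from the INX-315 lists, and 1109 protein-coding genes had the same pattern. The site shared by the 4 INX-315 libraries (chr7:92832855-92834469) was not at the main start but 2.83 kb into the gene, around an internal start and overlapping a promoter window of the antisense transcript CDK6-AS1. Its fold enrichment was 5.13 and 16.0 in OVCAR3 and 6.46 and 6.31 in Kuramochi, on 9, 30, 12 and 7 fragments. OVCAR3 replicate 2 thus stood well above the other 3 libraries.

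Nearer the main start, a second CDK6 site (chr7:92834876-92836917) was listed in 3 of the INX-315 libraries, reaching 6.12 and 8.16 in OVCAR3 and 6.41 in Kuramochi replicate 1. A non-promoter region (chr7:92695561-92695832) in a CDK6 intron, 30.0 kb from the nearest CDK6 start, was listed in OVCAR3 INX-315 replicate 2 only, at 9.15. The CDK6 peaks ranked modestly within their lists. The highest was at the 65.8 percentile in OVCAR3 INX-315 replicate 2 and at the 28.5 to 36.2 percentile in the other 3 libraries.

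The gains changed when the lists were cut to equal length. When every list of a line was cut to the length of its shortest, 6162 peaks in OVCAR3 and 5221 in Kuramochi, CCND3 stayed occupied in all 4 groups. CCND1 was then the only gene gained in OVCAR3, CDK6 was gained in neither line, and CCND3 was the only gene occupied in Kuramochi under INX-315. The cut fell mostly on the INX-315 lists and removed their lowest-ranked peaks. List length and Rb signal cannot be told apart this way.

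The pathway around these genes was examined through 34 genes. Of these, 22 (64.7%) were occupied under DMSO in each line, against 32 (94.1%) under INX-315 in OVCAR3 and 29 (85.3%) in Kuramochi. Over all protein-coding genes the shares were 26.8% and 55.5% in OVCAR3 and 24.9% and 53.2% in Kuramochi. Each of the 34 had a promoter peak in at least 1 library, while 31.2% of all genes had none. A promoter peak in all 8 libraries was found for 21 (61.8%), against 18.8% of all genes. The 21 included RB1 itself and its relative RBL1, E2F1, E2F2, E2F3, E2F7 and E2F8, the DP partners TFDP1 and TFDP2, and CCNE1, CCNA2, CDK2 and CDC25A on the CDK2 side. Of the 5 genes, CCND3 alone shared that pattern. Of the 34, 6 (17.6%) were gained in each line, near the shares of all genes given above (16.2% and 14%), and 4 (11.8%) in both, against 5.56% of all genes. These counts are a description of the list. The 4 were RBL2, which encodes the Rb relative p130, E2F5, a repressive E2F that p130 binds, CDKN1A, which encodes the CDK inhibitor p21, and AMBRA1, the ubiquitin ligase adaptor that directs destruction of D-type cyclins.

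The 4 genes gained in both lines had no promoter peak in any DMSO library, as CDK6 had none. CDKN1A fold enrichment under INX-315 was 10.4 and 12.9 in OVCAR3 and 6.01 and 6.64 in Kuramochi. RBL2 had 9.18 and 13.4 in OVCAR3 and 5.69 and 4.93 in Kuramochi. For both genes the OVCAR3 values lay above the Kuramochi values without overlap, a difference that was not tested. AMBRA1 had 4.61 and 10.3 in OVCAR3 and 8.64 and 5.76 in Kuramochi. E2F5 had 4.26 and 3.81 in OVCAR3 and 10.1 and 5.20 in Kuramochi. CDK7 and CCNH, subunits of the CDK-activating kinase, were gained in OVCAR3 only, and the inhibitor genes CDKN2B and CDKN1C in Kuramochi only, but the difference between lines was not tested, and these genes were named after their calls were seen.

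Among the 21 pathway genes in the limma fit, 20 rose under INX-315 and none fell, while 95.2% of all 3269 regions rose and none fell. The median change was 1.15 for these genes against 1.31 over all regions, so the count does not set them apart. The largest rises were at CDKN2C, which encodes the CDK4/6 inhibitor p18 (2.02 ± 0.32, SE, adjusted p = 6.88e-09), and at the E2F partner gene TFDP2 (2.02 ± 0.32, adjusted p = 7.23e-09). CCNA2, encoding cyclin A2 (1.97), FBXO4, a ubiquitin ligase gene linked to cyclin D1 turnover (1.80), and FBXW7, whose product marks cyclin E for destruction (1.64), came next, with CCND3 at 1.69 between the last 2. The 1 gene of the 21 that did not pass was E2F8, at 0.46 ± 0.32 (limma adjusted p = 0.147).

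Relative to the median of each library, CDKN2C (0.68, limma adjusted p = 0.0299) and TFDP2 (0.67, adjusted p = 0.0347) were still higher. CDKN2A, which encodes p16 and ARF (-0.69, limma adjusted p = 0.0231), and the repressive E2F gene E2F8 (-0.89, adjusted p = 0.0131) were lower, and these were named after their values were seen. Their positions, and that of CCND3, appear in the plot of changes by gene. For comparison, 38 genes of other cyclins and CDKs had 15 (39.5%) occupied under DMSO and 30 (78.9%) under INX-315 in OVCAR3. In Kuramochi 13 (34.2%) and 29 (76.3%) were. Over all protein-coding genes the shares were 26.8% and 55.5% in OVCAR3 and 24.9% and 53.2% in Kuramochi. CCNI was the only one of them gained in both lines (2.63%, against 5.56% of all genes). Of the 38, 11 entered the limma fit, all 11 higher, as were 95.2% of all regions fitted.

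**Figure D4:**
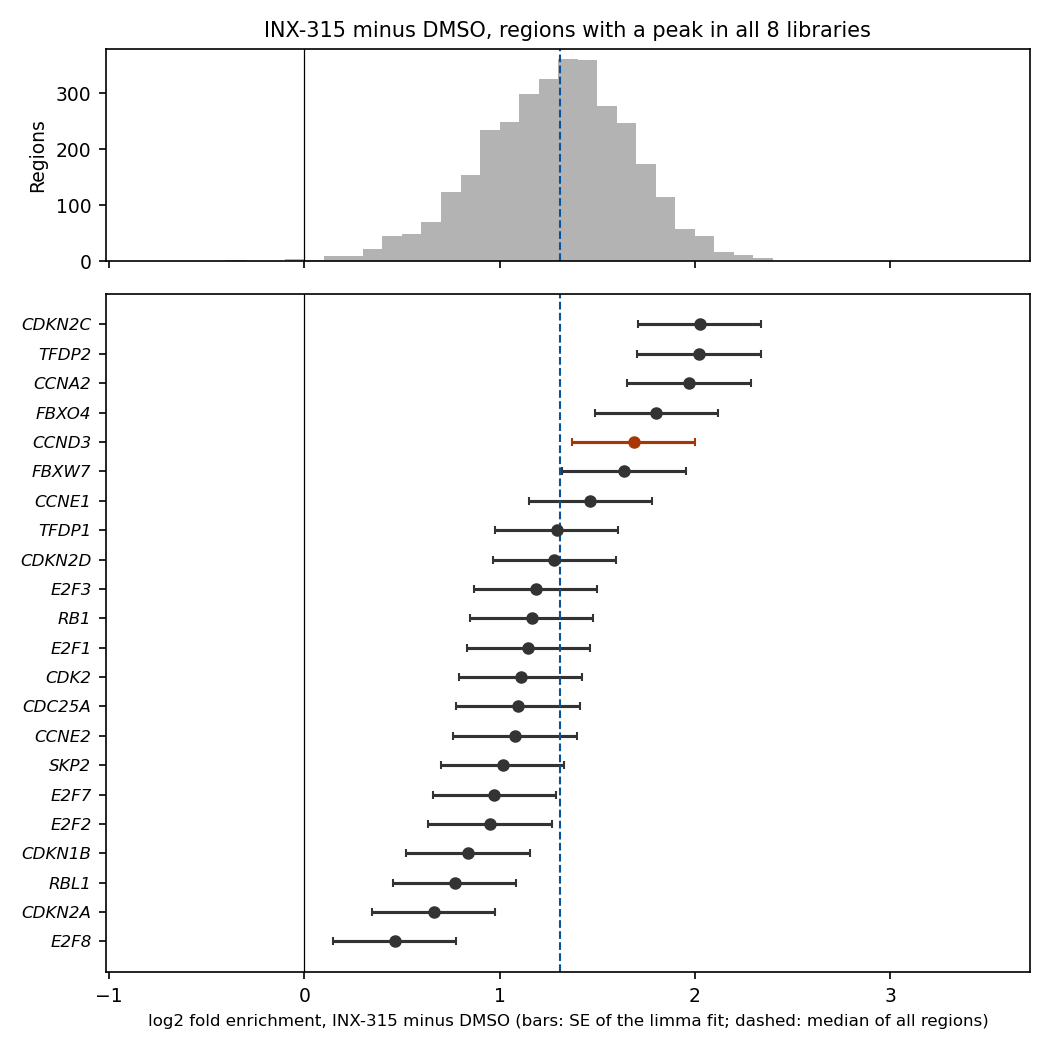
Change in log2 fold enrichment, INX-315 minus DMSO, for all 3269 regions with a peak in all 8 libraries (histogram, above) and for CCND3 (brown) and 21 pathway genes (below; points are limma estimates, bars their SE, dashed line the median of 1.31). CCND3 lies at 1.69, to the right of the median but within 2 SE of it.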

How the data were processed

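Rb and IgG2a CUT&RUN libraries were analysed from the peak lists of the study. The authors trimmed reads with BBDuk, aligned them with Bowtie2 (2.3.4.1) to hg38, removed mitochondrial and blacklisted reads, kept duplicates, and called peaks in each library separately with MACS2 (2.2.7.1) at a q-value of 0.05 against that line's IgG2a library. The deposited fold enrichment is on a linear scale, as summit fragments plus 1 over local background plus 1. The added 1 lowers this ratio most where the background is low, so it varies with depth. The deposited −log10 p-value and −log10 q-value come from the authors' peak caller, and summit offsets give base positions within peaks. A longer list can come from stronger signal or greater depth as well as from more sites. The lists hold no read totals. Fold enrichment equals (fragments + 1)/(background + 1) and the p-value is a Poisson tail of the same pair, so whole fragments were recovered (relative tolerance 3e-05) for at least 98.6% of Rb peaks in each library.

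Overlapping peaks (1 bp or more) on chromosomes 1 to 22 and X were merged over the 8 Rb lists. Presence calls required both replicates and have no test, since 2 against 2 libraries cannot reach significance. Heights were fitted with limma 3.58.1 in R 4.3.3 on log2 fold enrichment (highest peak per region and library, no further pseudocount). Within-line changes and their difference came from a fit of the 4 groups. In the joint and 4-group fits without centring, limma estimated 1 common residual spread for all regions, so SEs are equal among genes. After centring, SEs differed among genes (0.242 at CCND3, 0.198 at CDKN2C and 0.225 at E2F8). The limma script was checked on simulated data. Same-numbered replicates had deviations correlated at -0.04 in OVCAR3 and 0.000778 in Kuramochi, and the labels do not tie the numbers to a shared batch, so replicates were not paired.

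The 5 genes and the gene lists were chosen with earlier results of these data known. All 5 genes are described in every library. The rule for named pathway genes took those gained in both lines, those without any promoter peak, and the 5 largest changes past an adjusted p of 0.05 in each direction. Other pathway genes, given as examples or exceptions, were named after their values were seen. Of other cyclins and CDKs, only counts and genes gained in both lines are given, and for CCND3 the 3 genes of most similar height. Alternatives varied the q-value, list length, promoter window (1000 bp upstream), overlap rule, transcript set, nearest gene, distance (100 kb), height scale, centring and each library in turn. The study's own differential test needs reads and was not used here.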

Additional observations from a re-analysis of the deposited data

How the results depend on the processing

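The numbers of genes occupied under INX-315 in OVCAR3 and lost in either line stayed within 1.5 times under all 13 alternatives. With equal list lengths, 1 gene was occupied in Kuramochi under INX-315, 1 was gained in OVCAR3 and 0 in Kuramochi, and the non-promoter regions fell from 5 to 1 in all and from 2 to 0 gained in OVCAR3. A q-value of 0.001 gave 2 genes gained in Kuramochi, and assignment to the nearest gene of any type gave 3 non-promoter regions. Leaving out 1 library at a time, genes occupied under DMSO ranged from 1 to 2 in OVCAR3 (2, with CDK4, without DMSO replicate 2) and from 1 to 3 in Kuramochi (3, with CCND1 and CDK4, without DMSO replicate 1), and genes gained in Kuramochi from 1 to 3 (3 without DMSO replicate 2, 2 without INX-315 replicate 2, which adds CCND2). Gained non-promoter regions in Kuramochi ranged from 0 to 1 (1 without INX-315 replicate 1). In OVCAR3, genes gained ranged from 2 to 3 (3, with CDK4, without DMSO replicate 1). Gained non-promoter regions there ranged from 2 to 3 (3 without INX-315 replicate 1).

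The CCND3 change was 2.01 in fragments over the genome mean. It was 0.34 after centring (limma adjusted p = 0.390) and 0.34 after quantile normalisation (adjusted p = 0.404), neither past the threshold. Leaving out 1 library gave 1.39 to 2.00, each past it. Centring left 100 regions higher and 250 lower, and quantile normalisation 118 and 154, against 3111 and 0. Leaving out 1 library gave 0 to 1 lower. With a replicate block the CCND3 change was 1.69 (limma adjusted p = 3.61e-07) with 3116 regions higher, 5 more than without it, and the CCND3 call held. Depth limits absence: a library listed no peak below 3 to 5 fragments at the genome mean.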
